A study of Mus musculus with 12 samples.

Results

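The progression of a cell from G2 through mitosis was read from 37 genes in αTC1 (alpha) and βTC3 (beta) cells treated with GW8510 or with its vehicle. The 39 genes of this set were listed by their roles (entry into mitosis, mitotic kinases, kinesins, kinetochores, the anaphase promoting complex (APC/C), cytokinesis, and the spindle and chromosomes). Of the 39 listed genes, 37 were measured among 12255 genes tested, and where a gene had several probe sets the brightest one on average was used, with the others as a check. Ccnb1 and Espl1 had no probe set assigned here. Both lines come from mouse islet tumours that arose in animals carrying SV40 large T antigen under a hormone gene promoter, so that all cells compared here, the controls included, have this background. The paper describes αTC1 clone 6 and clone 9, whereas the array labels give only aTC1 and bTC3, and their growth protocol covers aTC1 alone. GW8510, described as a putative CDK2 inhibitor, was used at 3.3 µM for 5 days, and DMSO was at 0.1% in every culture. Each of the 4 groups (alpha DMSO, alpha GW8510, beta DMSO, beta GW8510) had 3 cultures that the labels call biological replicates, 1 Affymetrix mouse array each. The titles of all treated samples give GW8510, whereas the source names of replicates 2 and 3 of both treated groups read GW8511 and GW8512, and the titles were followed here. Cell number, DNA content and mitotic index were not part of these data.

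The transcripts of G2 and mitosis rise as cells leave S phase and are destroyed or silenced after division. Their genes are kept off outside this window by the MuvB core in the DREAM complex with the pocket proteins p107 and p130, and are switched on when MuvB joins B-MYB and FOXM1 instead. These complexes act at the cell cycle genes homology region (CHR), and NF-Y acts at CCAAT boxes nearby. Large T antigen binds the pocket proteins, and lines that carry it cycle without an intact retinoblastoma pathway.

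Promoters of 5 members are shown because they stand for the patterns of response described below, by the brightest probe set of each gene. Ccnb2 and Bub1 fell in alpha cells and rose in beta cells, Racgap1 and Kif11 fell in both lines, and Ube2c rose in alpha cells. Each sequence runs 5′ to 3′ along the gene's strand, from 250 bases before to 50 bases after the RefSeq start site on GRCm38.p6. Capitals mark TTTGAA or TTCGAA (the CHR) and CCAAT, or their complements TTCAAA and ATTGG.
Ccnb2 (chr9:70421505-70421804, minus strand): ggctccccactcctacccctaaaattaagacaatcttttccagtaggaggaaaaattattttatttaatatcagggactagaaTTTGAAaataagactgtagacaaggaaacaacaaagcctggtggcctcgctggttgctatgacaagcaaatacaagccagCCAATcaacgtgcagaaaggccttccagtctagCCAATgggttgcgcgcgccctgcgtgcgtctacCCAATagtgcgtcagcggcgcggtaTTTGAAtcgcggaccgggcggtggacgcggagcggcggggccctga
Bub1 (chr2:127831810-127832109, minus strand): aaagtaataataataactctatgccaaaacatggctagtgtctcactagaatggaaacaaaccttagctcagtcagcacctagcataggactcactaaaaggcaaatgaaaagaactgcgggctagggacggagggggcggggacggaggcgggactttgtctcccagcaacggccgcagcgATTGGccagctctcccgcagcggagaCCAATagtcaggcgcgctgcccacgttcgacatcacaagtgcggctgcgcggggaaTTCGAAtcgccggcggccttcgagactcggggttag
Racgap1 (chr15:99651607-99651906, minus strand): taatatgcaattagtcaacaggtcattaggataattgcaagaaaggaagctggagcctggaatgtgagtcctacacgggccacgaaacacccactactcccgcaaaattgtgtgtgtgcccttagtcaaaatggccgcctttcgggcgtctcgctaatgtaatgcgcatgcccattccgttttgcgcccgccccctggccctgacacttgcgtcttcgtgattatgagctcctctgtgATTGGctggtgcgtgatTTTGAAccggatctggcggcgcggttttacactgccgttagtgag
Kif11 (chr19:37376132-37376431, plus strand): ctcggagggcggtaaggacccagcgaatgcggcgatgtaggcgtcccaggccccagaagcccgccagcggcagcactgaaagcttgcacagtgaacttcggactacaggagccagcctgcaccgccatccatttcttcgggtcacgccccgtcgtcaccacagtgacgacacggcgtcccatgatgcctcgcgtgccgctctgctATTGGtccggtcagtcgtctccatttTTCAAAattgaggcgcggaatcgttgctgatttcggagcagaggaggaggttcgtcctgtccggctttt
Ube2c (chr2:164769679-164769978, plus strand): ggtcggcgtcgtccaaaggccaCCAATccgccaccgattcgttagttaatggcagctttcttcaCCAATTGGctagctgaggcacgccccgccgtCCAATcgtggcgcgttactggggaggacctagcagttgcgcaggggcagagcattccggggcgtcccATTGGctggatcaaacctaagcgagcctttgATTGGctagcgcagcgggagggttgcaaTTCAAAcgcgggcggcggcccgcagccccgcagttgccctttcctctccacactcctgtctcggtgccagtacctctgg
The first base of the CHR nearest the start site was base 5 of the transcript in Ccnb2, base 15 in Bub1 and base 6 in Racgap1, and lay 19 bases upstream in Kif11 and 29 upstream in Ube2c. In Ube2c a pair of CCAAT matches on opposite strands overlapped, which gives the longest run of capitals.

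RefSeq promoters were matched to 31 of the 37 measured members. On either strand, TTTGAA or TTCGAA was found for 23 of these 31 members (74.2%). The share was 17.2% of the 9783 tested genes with a promoter and 21.7% of all 27025 genes with a promoter of the same length. A gene with several promoter windows was counted where any of them held the motif. CCAAT was found in 24 (77.4%) against 42.2% of tested genes. Both motifs were present in 21 members (67.7%) and 8.11% of tested genes. The members that rose in beta cells and those that fell there had the CHR letters alike, in 9 of 10 and 6 of 7 genes, and members that were not called in beta cells had them in 8 of 14. Birc5, Mad2l1, Nuf2, Nusap1 and Pttg1 had neither motif in this window. Every such match is a stretch of letters and not a measured binding site.

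**Figure D1:**
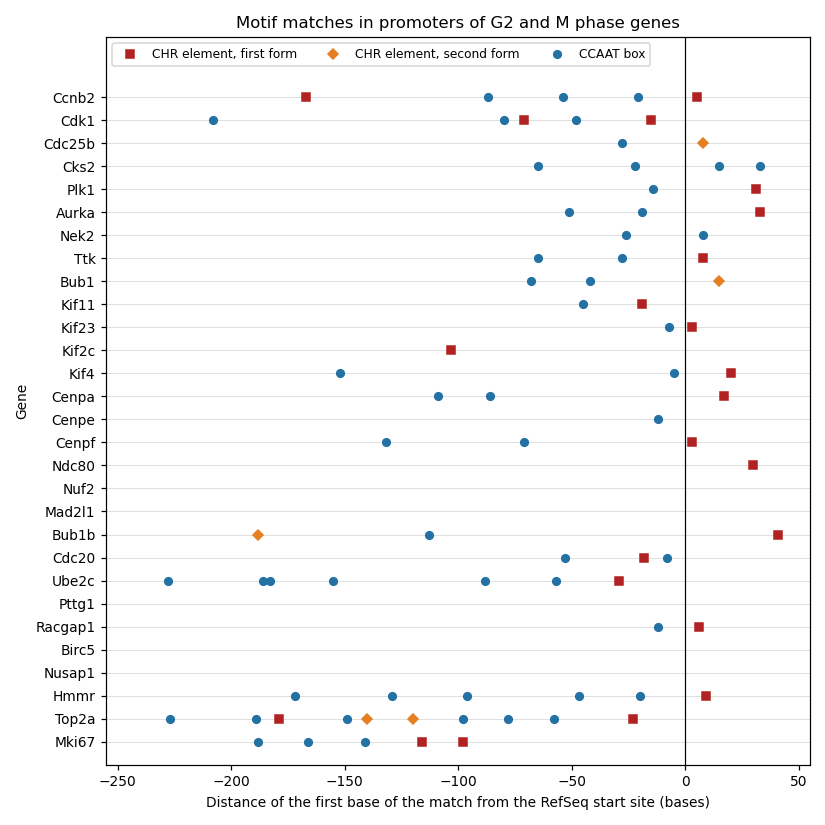
Matches to the CHR letters (squares and diamonds) and to CCAAT (circles) by their distance in bases from the RefSeq start site, for the 29 members with 1 promoter window. Most CHR matches lie within 50 bases of the start site, and 5 genes have no match.

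Array medians were between 174 and 182, apart from beta GW8510 replicate 3 at 199.9, and within each group all arrays correlated at r of 0.994 or more across genes, which are not independent. Without beta GW8510 replicate 3, the number of members called in beta cells was the same, 7 lower and 11 higher, while calls over all genes changed from 1757 lower and 2417 higher to 2005 lower and 1948 higher. The ratio of the 3′ to the 5′ control probe set of Actb, a sign of RNA integrity and labelling, was 1.36 to 1.44 on alpha DMSO arrays, 1.47 to 1.57 on alpha GW8510 arrays, 1.17 to 1.18 on beta DMSO arrays and 1.15 to 1.22 on beta GW8510 arrays. It was therefore higher on each alpha GW8510 array than on each alpha control, and its part in the falls described below was not tested. Gcg, the glucagon gene, was at the upper bound of 20000 on all alpha arrays, and Ins2 and Iapp were at this bound on all beta arrays, against means of 96.8 and 139.8 in alpha DMSO cells. The beta line also had Gcg at 6420.2 with DMSO and 12041 with GW8510, and Sst, the somatostatin gene, at 17819 with DMSO and at the upper bound with GW8510. Of 16 listed markers of other pancreatic, stromal and blood cells 14 were measured, and their summed intensity was 1259 to 1276 in alpha DMSO, 2012 to 2140.1 in alpha GW8510, 17860.2 to 19089 in beta DMSO and 21028 to 21168 in beta GW8510 cells. In each line 3 of these 14 rose, near the share of all genes (20.2% in alpha and 19.7% in beta cells). Sst is among the 14 and makes up most of the sum in beta cells, and Cd68, given below, is also among them. Of 6 measured beta cell markers 3 rose in alpha cells with GW8510, their sum being 774 to 803 with DMSO and 1295 to 1412 with GW8510, and of 4 measured alpha cell markers 2 fell and 1 rose there. The part of these changes in the members' responses was not tested. Cd68, a lysosomal protein of macrophages, went from 61.6 to 655 in alpha and from 38.5 to 45.0 in beta cells, while Ptprc, a defining marker of blood cells, was at or near the lower bound of 20 on every array.

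GW8510 lowered most G2 and M phase transcripts in alpha cells and gave a mixed response in beta cells. In alpha cells 26 of 37 members fell and 3 rose (Cdc25b, Ube2c and Birc5), at an adjusted p under 0.05 from limma over all genes, whereas 21.2% of all genes fell and 20.2% rose (41.3% in either direction). The median log2 fold change (GW8510 over DMSO) was -0.34 for the members and 0.029 for all genes. In beta cells 7 members fell and 11 rose, beside 14.3% and 19.7% of all genes (34.1% in either direction), and the median of 0.061 was close to that of all genes (0.071). The share of members that fell in beta cells was thus near that of all genes. Without overlap between the arrays of both groups, 29 members were lower and 3 higher in alpha cells (25.5% and 26.0% of all genes), and 7 were lower and 13 higher in beta cells (17.6% and 28.4%). These values are from bulk RNA, in which a change in the number of cells in G2 or mitosis and a change in RNA per such cell cannot be told apart. By flow cytometry after a shorter treatment, the paper reports a larger G2/M population of alpha cells with GW8510. The paper also reports a smaller proportion of mitotic cells, and it proposes a G2/M arrest. Whether this held in the cultures read here, alpha or beta, was not tested.

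The response itself differed between the lines for most members. In the contrast of both responses (beta minus alpha), 28 of 37 members were higher and 1 (Birc5) lower, compared with 16.4% and 12.0% of all genes, and the median difference was 0.39 for the members and 0.043 for all genes. The mean over the 37 members, relative to the DMSO mean of the same line, was -0.35, -0.29 and -0.31 on the alpha GW8510 arrays and 0.049, 0.054 and 0.14 on the beta GW8510 arrays (log2). All alpha GW8510 arrays were below and all beta GW8510 arrays were above their own controls on this measure, the beta arrays by little. Nek2, Kif11, Cdc20, Ect2, Racgap1, Top2a and Mki67 fell in both lines, a pattern of 9.04% of all genes. For Kif11, Cdc20, Racgap1 and Top2a the fall in beta cells rests on the brightest probe set, since no further one was called there. Ccnb2, Plk1, Bub1, Kif2c and Prc1 fell in alpha cells and rose in beta cells by their brightest probe sets. Among all genes 3.65% moved in opposite directions in either order. The further probe sets of Bub1 and Prc1 were not called in beta cells. Cdk1, Aurka, Kif20a, Pttg1 and Hmmr rose in beta cells without passing the test in alpha cells, a pattern of 1003 of all 12255 genes. A further 14 members fell in alpha cells and were not called in beta cells, as were 1185 of all genes. Cdc25b rose in both lines, as did 9.07% of all genes.

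**Figure D2:**
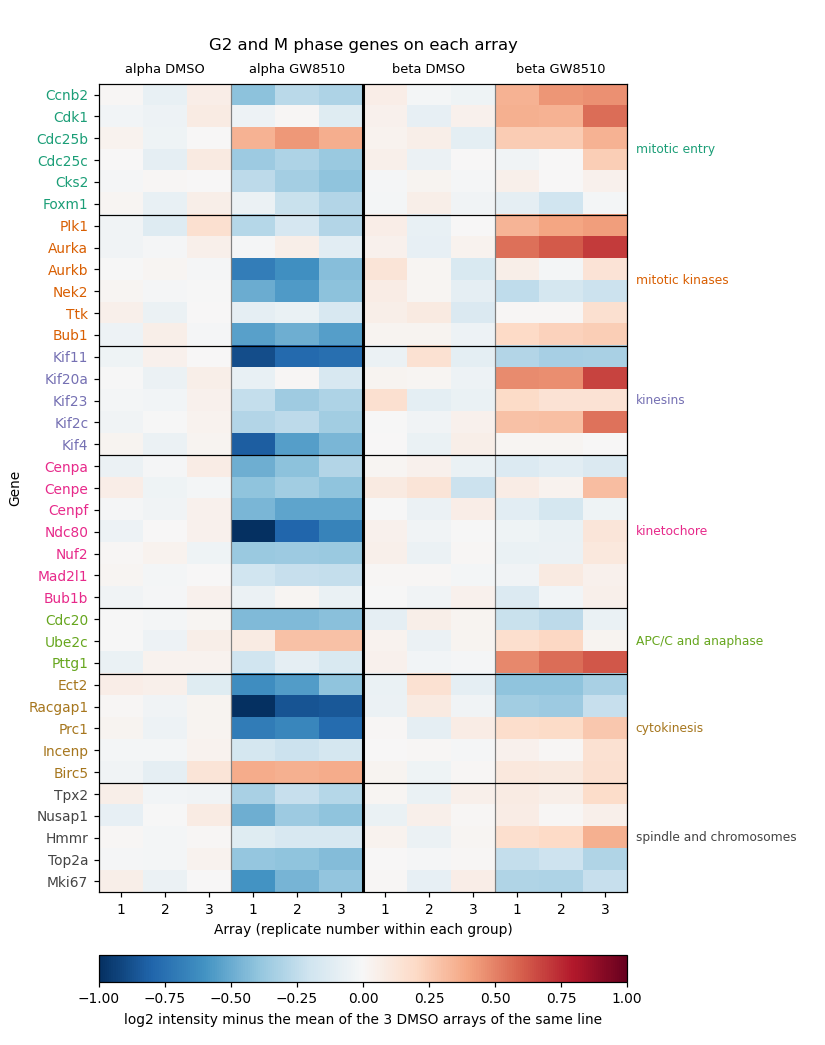
Log2 intensity of the 37 measured members (rows, by role) on each of the 12 arrays (columns, replicates 1 to 3 of each group), relative to the mean of the DMSO arrays of the same line, with the colour scale ending at -1 and 1. Blue fills most of the alpha GW8510 columns, while the beta GW8510 columns hold red rows such as Aurka, Kif20a and Pttg1 beside blue rows such as Ect2 and Racgap1.

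Among the genes of mitotic entry, the transcript of a B-type cyclin moved in opposite directions in the lines. Ccnb2, a cyclin that activates Cdk1, had intensities in alpha cells of 1189.8, 1123 and 1238 with DMSO and 889, 981 and 953 with GW8510, a log2 fold change of -0.33 ± 0.061 (SE, 3 arrays against 3, as in all values of this form; adjusted p = 0.000803). In beta cells the arrays read 1938, 1831 and 1799 with DMSO and 2365, 2513 and 2550.2 with GW8510 (0.42 ± 0.061, adjusted p = 0.000238). The groups did not overlap in either line, and the responses differed by 0.75 ± 0.086, adjusted p = 5.07e-05. Cdk1, the kinase that drives entry into mitosis, gave 3248, 3186 and 3497 with DMSO and 3190.0, 3334 and 3034 with GW8510 in alpha cells, where the arrays of both groups overlapped and the fold change did not pass the test (-0.055 ± 0.072, adjusted p = 0.594). It was higher on every treated beta array, with 5618, 5147 and 5609 with DMSO and 6977, 6943 and 8027 with GW8510 (0.42 ± 0.072, adjusted p = 0.000692).

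Cdc25b, a phosphatase that removes inhibitory phosphate from Cdk1, was the member that rose in both lines. Its intensities were 603, 571 and 589.8 with DMSO and 748, 794 and 755 with GW8510 in alpha cells (0.38 ± 0.058, adjusted p = 0.000183). In beta cells they were 1178, 1200.5 and 1078 with DMSO and 1374, 1372 and 1467 with GW8510 (0.29 ± 0.058, adjusted p = 0.00226). The rises did not differ at the threshold (-0.093 ± 0.082, adjusted p = 0.470). The related phosphatase Cdc25c fell in alpha cells (-0.35 ± 0.077), from 577 to 652 with DMSO to 473 to 495 with GW8510, and had 0.069 ± 0.077 in beta cells (adjusted p = 0.526). Cks2, a small subunit that binds Cdk1, fell in alpha cells (-0.34 ± 0.050) and had 0.034 ± 0.050 in beta cells. Foxm1, the transcription factor of this gene program, had -0.19 ± 0.072 in alpha cells (adjusted p = 0.0518) and -0.10 ± 0.072 in beta cells (adjusted p = 0.305). The value of Foxm1 in alpha cells was called in 10 of 23 alternatives (adjusted p = 0.00282 to 0.172 over all of them), among them those without alpha DMSO replicate 2, alpha GW8510 replicate 1 or beta GW8510 replicate 2 or 3 (0.0114 to 0.0470). Of the 6 measured genes of entry, 3 fell and 1 rose in alpha cells (beside 21.2% and 20.2% of all genes). In beta cells 3 rose (beside 19.7% of all genes).

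The mitotic kinases split by gene. Aurka, which acts at centrosomes and spindle poles, had the largest rise of all members in beta cells, with 1993, 1829.9 and 1976 with DMSO and 2837, 2949.9 and 3141 with GW8510 (0.62 ± 0.063, adjusted p = 1.6e-05). On alpha arrays it gave 1223, 1243 and 1304 with DMSO and 1248, 1309 and 1166 with GW8510, and the groups overlapped (-0.019 ± 0.063, adjusted p = 0.858). Aurkb, the catalytic subunit of the chromosomal passenger complex, was read beside it. It fell in alpha cells, with 722, 733 and 720.3 with DMSO and 450.0, 475 and 539 with GW8510 (-0.58 ± 0.083, adjusted p = 0.000119). On beta arrays it read 962, 888 and 792 with DMSO and 912, 866 and 965 with GW8510 and the groups overlapped (0.057 ± 0.083, adjusted p = 0.637). By their brightest probe sets the responses of both Aurora kinases differed between the lines by nearly the same amount, 0.64 ± 0.090, adjusted p = 0.000221 for Aurka and 0.63 ± 0.12, adjusted p = 0.00163 for Aurkb. A further probe set of Aurkb gave a larger difference (0.90 ± 0.13), with -0.67 in alpha cells and 0.23, not called, in beta cells.

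Plk1, a kinase of mitotic entry, spindle assembly and cytokinesis, fell in alpha cells with 1106, 1037 and 1269 with DMSO and 929, 1009 and 926 with GW8510 (-0.25 ± 0.076, adjusted p = 0.0192) and rose in beta cells with 1492, 1348 and 1427 with DMSO and 1799, 1863 and 1899 with GW8510 (0.38 ± 0.076, adjusted p = 0.00194). Its fall did not pass the test without alpha DMSO replicate 3 or alpha GW8510 replicate 1 or 3 (adjusted p = 0.0549 to 0.0832). Bub1, a kinase of the spindle assembly checkpoint, gave 1726, 1857 and 1769 with DMSO and 1226, 1269 and 1219 with GW8510 in alpha cells (-0.53 ± 0.051, adjusted p = 4.2e-06). In beta cells the values were 2538, 2543 and 2402 with DMSO and 2858, 2932 and 2965 with GW8510 (0.23 ± 0.051, adjusted p = 0.00428), so that every treated beta array was above every control. A further probe set of Bub1 also fell in alpha cells (-0.72) but had -0.41 in beta cells and did not pass the test there (adjusted p = 0.111 over all probe sets). Nek2, which separates centrosomes, fell in alpha (-0.49 ± 0.060) and beta cells (-0.21 ± 0.060), and the beta call was lost without beta DMSO replicate 1 or 2 or beta GW8510 replicate 1 (adjusted p = 0.0522 to 0.0708). The difference of the Nek2 responses (0.28 ± 0.085, adjusted p = 0.0288) was not called without alpha DMSO replicate 1, 2 or 3, alpha GW8510 replicate 2, beta DMSO replicate 3 or beta GW8510 replicate 2 (adjusted p = 0.0540 to 0.0747). Ttk, the checkpoint kinase also called Mps1, did not pass the test in either line (-0.10 ± 0.071 and 0.061 ± 0.071). Of 6 kinases, 4 fell in alpha cells (beside 21.2% of all genes), and 1 fell and 3 rose in beta cells (beside 14.3% and 19.7%). The response differed between the lines for 5 of them, beside 28.5% of all genes.

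All 5 kinesins differed in their response between the lines, by 0.46 to 0.68, beside 28.5% of all genes with a called difference. Kif11, the motor that pushes spindle poles apart, fell most in alpha cells, with 1318, 1405 and 1362 with DMSO and 737, 793 and 808 with GW8510 (-0.81 ± 0.069, adjusted p = 1.47e-06). In beta cells the fall was smaller, with 1649, 1905 and 1600.1 with DMSO and 1399, 1362 and 1371 with GW8510 (-0.31 ± 0.069, adjusted p = 0.00374; difference 0.49 ± 0.097, adjusted p = 0.00246). The treated arrays were below all controls in both lines. For 2 further probe sets of Kif11 the alpha values were -0.55 and -0.86, both called, but the beta values of -0.039 and -0.16 were not. Kif20a, which carries the passenger complex to the midzone, rose in beta cells, where it read 2314, 2299.5 and 2185 with DMSO and 3138, 3132 and 3611 with GW8510 (0.54 ± 0.070, adjusted p = 0.000107). It read 1188, 1147 and 1245 with DMSO and 1131, 1205 and 1065 with GW8510 in alpha cells (-0.074 ± 0.070, adjusted p = 0.451). Treated beta arrays lay above the controls, and alpha arrays overlapped.

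Kif2c, which depolymerizes microtubules at kinetochores, gave 1267, 1293 and 1328 with DMSO and 1058, 1082 and 1017 with GW8510 in alpha cells (-0.30 ± 0.069, adjusted p = 0.00362). In beta cells it gave 1545, 1508 and 1594 with DMSO and 1898, 1907 and 2262 with GW8510, with replicate 3 the highest (0.38 ± 0.069, adjusted p = 0.00107). The value without that array was 0.30 (adjusted p = 0.000938). Of 3 further probe sets of Kif2c, 2 rose in beta cells (0.37 and 0.32) and the dimmest had -0.29, not called. Kif4, a chromosome-bound motor, fell in alpha cells (-0.61 ± 0.082, adjusted p = 6.44e-05) and had 0.016 ± 0.082 in beta cells. Kif23, the motor of centralspindlin, fell in alpha cells (-0.30 ± 0.068, adjusted p = 0.00334) and had 0.16 ± 0.068 in beta cells (adjusted p = 0.0916), a value that passed the test only without beta DMSO replicate 1 among the arrays left out in turn (adjusted p = 0.0104). In all, 4 of 5 kinesins fell in alpha cells (beside 21.2% of all genes), and 1 fell and 2 rose in beta cells (beside 14.3% and 19.7%).

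Kinetochore genes fell in alpha cells and gave no call in beta cells. Of 7 measured, 6 fell in alpha cells (beside 21.2% of all genes). In beta cells limma called 0 (0 also at an unadjusted p under 0.05), beside 34.1% of all genes in either direction. Their median in beta cells was -0.0080. Ndc80, the microtubule-binding subunit that gives the outer kinetochore complex its name, fell most, with 657, 682 and 699 with DMSO and 327, 392 and 427 with GW8510 (-0.84 ± 0.089, adjusted p = 9.4e-06). The beta arrays overlapped, with 976, 923 and 944 with DMSO and 918, 905 and 1030.3 with GW8510 (0.0036 ± 0.089, adjusted p = 0.986), and the responses differed by 0.84 ± 0.13, adjusted p = 0.000349. Its partner Nuf2 fell less in alpha cells (-0.37 ± 0.058) and had -0.0080 ± 0.058 in beta cells.

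Cenpe, a motor that holds chromosomes to microtubules, fell in alpha cells with 1169, 1083 and 1104 with DMSO and 844, 877 and 846 with GW8510 (-0.39 ± 0.093, adjusted p = 0.00520). In beta cells it read 889.6, 916 and 722 with DMSO and 884, 860.5 and 1036 with GW8510 and the arrays overlapped (0.14 ± 0.093, adjusted p = 0.279). Cenpf, a large protein of the outer kinetochore, fell in alpha cells (-0.50 ± 0.056) and had -0.11 ± 0.056 in beta cells, where a further probe set was called lower (-0.40, adjusted p = 0.00177 over all probe sets). The difference of the Cenpf responses was 0.39 ± 0.079, adjusted p = 0.00267 with the brightest probe set, -0.026 with the further one and 0.18 with both averaged, when it was not called (adjusted p = 0.155). Cenpa, the histone that marks centromeres, fell in alpha cells (-0.40 ± 0.063). Its treated beta arrays were all below the controls, but the fold change of -0.13 ± 0.063 did not pass the test (adjusted p = 0.145). The difference of the Cenpa responses (0.27 ± 0.089, adjusted p = 0.0391) was not called without alpha DMSO replicate 2 or 3, alpha GW8510 replicate 1 or 2, beta DMSO replicate 1 or 3 or beta GW8510 replicate 1 or 2 (adjusted p = 0.0631 to 0.0960). Mad2l1, the checkpoint protein that binds Cdc20, had -0.23 ± 0.048 in alpha cells, a fall that passed the test, and 0.032 ± 0.048 in beta cells. Bub1b, its partner in the checkpoint complex, was the member of this group that was called in neither line (-0.035 ± 0.059 and -0.039 ± 0.059).

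The 3 measured genes of the APC/C and anaphase each behaved in a different way. Cdc20, the APC/C coactivator of early mitosis, fell in alpha cells with 5783, 5722 and 5874 with DMSO and 4265, 4257 and 4324 with GW8510 (-0.44 ± 0.061, adjusted p = 9.27e-05). In beta cells it gave 7482, 8279 and 8096 with DMSO and 6812, 6623 and 7573 with GW8510, and the highest treated array was above the lowest control (-0.18 ± 0.061, adjusted p = 0.0350). The beta call was lost without alpha DMSO replicate 2, beta DMSO replicate 2 or 3 or beta GW8510 replicate 1 or 2 (adjusted p = 0.0507 to 0.126), and 2 further probe sets gave -0.19 and -0.14, neither called. The difference of its responses (0.25 ± 0.086, adjusted p = 0.0477) was not called without alpha DMSO replicate 1, 2 or 3, alpha GW8510 replicate 1, 2 or 3, beta DMSO replicate 1 or 3 or beta GW8510 replicate 1 or 3 (adjusted p = 0.0563 to 0.119). Ube2c, the ubiquitin-conjugating enzyme of the APC/C, rose in alpha cells with 6908, 6703 and 7203 with DMSO and 7358, 8488 and 8477 with GW8510 (0.22 ± 0.071, adjusted p = 0.0250), and gave 10576, 9872 and 10481 with DMSO and 11551, 11867 and 10482 with GW8510 in beta cells with overlapping arrays (0.13 ± 0.071, adjusted p = 0.187). Its rise in alpha cells was not called without alpha DMSO replicate 1 or 2 or alpha GW8510 replicate 2 or 3 (adjusted p = 0.0643 to 0.0948). Pttg1, or securin, which holds separase inactive until anaphase, rose in beta cells with 1514, 1437 and 1453 with DMSO and 2045, 2164 and 2260.3 with GW8510 (0.55 ± 0.058, adjusted p = 1.84e-05). The alpha arrays read 5718, 6136 and 6136 with DMSO and 5228, 5644 and 5403 with GW8510, all treated ones lower, but the fold change did not pass the test (-0.14 ± 0.058, adjusted p = 0.0652). It was called in 6 of 23 alternatives (adjusted p = 0.00595 to 0.433 over all of them), among them those without alpha DMSO replicate 1 or beta GW8510 replicate 3 (0.0396 to 0.0488). Further probe sets of Pttg1 gave 0.090, not called, and 0.72, called, in beta cells.

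Of 5 genes of cytokinesis, 4 fell and 1 rose in alpha cells (beside 21.2% and 20.2% of all genes). In beta cells 2 fell and 1 rose (beside 14.3% and 19.7%). Racgap1, the GTPase-activating subunit of centralspindlin, fell in alpha cells with 1321, 1275 and 1334 with DMSO and 581, 721 and 727 with GW8510 (-0.96 ± 0.084, adjusted p = 1.89e-06), that is to 0.514 of its control level (95% interval of the log2 value -1.15 to -0.78). In beta cells it gave 2226, 2460.2 and 2260.3 with DMSO and 1815, 1801 and 1972 with GW8510 (-0.31 ± 0.084, adjusted p = 0.0127), a fall that was not called without beta DMSO replicate 2 (adjusted p = 0.0568). The responses differed by 0.65 ± 0.12, adjusted p = 0.00153. A further probe set fell in alpha cells (-0.63) and had 0.042 in beta cells, not called. The mean of both probe sets gave -0.80 in alpha cells and -0.14 in beta cells, where it was not called (adjusted p = 0.156). Ect2, the exchange factor that activates RhoA at the cleavage site, fell in both lines. Its intensities were 1432, 1414 and 1257 with DMSO and 889.5, 929 and 1033 with GW8510 in alpha cells (-0.53 ± 0.082, adjusted p = 0.000224). They were 1573, 1831 and 1550.1 with DMSO and 1246, 1246 and 1319 with GW8510 in beta cells (-0.37 ± 0.082, adjusted p = 0.00381), and no difference was called between the responses (0.15 ± 0.12, 95% interval -0.10 to 0.40).

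Prc1, which bundles the microtubules of the midzone, had the largest difference among the brightest probe sets of the members. It fell in alpha cells with 1859.9, 1758 and 1862 with DMSO and 1123, 1164 and 1073 with GW8510 (-0.71 ± 0.059, adjusted p = 1.21e-06) and rose in beta cells with 1609, 1502 and 1676 with DMSO and 1802, 1820.5 and 1918 with GW8510 (0.21 ± 0.059, adjusted p = 0.0150), a difference of 0.92 ± 0.083, adjusted p = 7.31e-06. The rise in beta cells was not called without beta DMSO replicate 2 (adjusted p = 0.0683) or in a further probe set (0.022), whereas that probe set also fell in alpha cells (-0.78). Within the chromosomal passenger complex the subunits moved apart in alpha cells. Aurkb fell, Incenp, the scaffold, fell by less (-0.19 ± 0.051, adjusted p = 0.00946), and Birc5, or survivin, rose. In 2 further probe sets Incenp had -0.18 and -0.029 in alpha cells, neither called. Birc5 read 2632, 2525 and 2938 with DMSO and 3491, 3451 and 3488 with GW8510 in alpha cells (0.37 ± 0.060, adjusted p = 0.000297). In beta cells the treated arrays were also above the controls, with 3980.2, 3791 and 3937 with DMSO and 4192, 4174 and 4367 with GW8510, but the fold change did not pass the test (0.12 ± 0.060, adjusted p = 0.145). The difference of the Birc5 responses (-0.25 ± 0.084, adjusted p = 0.0469) kept its sign but was not called without alpha DMSO replicate 1 or 2, alpha GW8510 replicate 1, 2 or 3, beta DMSO replicate 1, 2 or 3 or beta GW8510 replicate 1 or 2 (adjusted p = 0.0581 to 0.121).

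Of the 5 genes of the spindle and chromosomes, 4 fell in alpha cells (beside 21.2% of all genes). In beta cells 2 fell and 1 rose (beside 14.3% and 19.7%). Top2a, the topoisomerase that untangles sister chromatids, fell in both lines. It gave 7264, 7219 and 7522 with DMSO and 5609, 5551 and 5426 with GW8510 in alpha cells (-0.41 ± 0.047, adjusted p = 2.11e-05). In beta cells it gave 8416, 8360.1 and 8463 with DMSO and 7145, 7289.6 and 6818 with GW8510 (-0.25 ± 0.047, adjusted p = 0.00156). A dim further probe set of Top2a had 0.093 and 0.19 in alpha and beta cells, neither called, and with both probe sets averaged the fall in beta cells was not called (adjusted p = 0.782). Mki67, the antigen used as a marker of cycling cells, also fell in both, with 4100.3, 3779.8 and 3942 with DMSO and 2608, 2853 and 2997 with GW8510 in alpha cells (-0.48 ± 0.065, adjusted p = 6.81e-05) and 6909.6, 6460.0 and 7186 with DMSO and 5571, 5536 and 5829 with GW8510 in beta cells (-0.28 ± 0.065, adjusted p = 0.00578). The difference between the lines did not pass the test for Top2a (0.16 ± 0.067, adjusted p = 0.104) or Mki67 (0.21 ± 0.092, adjusted p = 0.126). It was called in 4 of 22 alternatives for Top2a, among them that without beta GW8510 replicate 3 (adjusted p = 0.0327), and in 1 of 22 alternatives for Mki67.

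Nusap1, which ties microtubules to chromosomes, fell in alpha cells with 1699.5, 1798 and 1904 with DMSO and 1280.3, 1397 and 1364 with GW8510 (-0.42 ± 0.060, adjusted p = 0.000109). Its beta arrays overlapped, with 3714, 4028 and 3901 with DMSO and 4094, 3919 and 4018 with GW8510 (0.048 ± 0.060, adjusted p = 0.578). Hmmr, a microtubule-associated protein of spindle assembly, rose in beta cells with 2219, 2083 and 2198 with DMSO and 2429.8, 2484 and 2773 with GW8510 (0.24 ± 0.058, adjusted p = 0.00692). In alpha cells the treated arrays were below the controls, with 1928, 1889 and 1936 with DMSO and 1763, 1713 and 1717 with GW8510 (-0.15 ± 0.058, adjusted p = 0.0616), a value that was called in 9 of 23 alternatives (adjusted p = 0.00324 to 0.140 over all of them), among them that without beta GW8510 replicate 3 (0.0135). Of 3 further probe sets of Hmmr, 2 were called lower in alpha cells (-0.44 and -0.30) and 1 was not (-0.066). Tpx2, the activator of Aurka on spindle microtubules, fell in alpha cells (-0.28 ± 0.057, adjusted p = 0.00151) and had 0.11 ± 0.057 in beta cells. A further, dimmer probe set of Tpx2 fell in both lines, with -0.90 and -0.70 on the log2 scale, so the probe sets of Tpx2 gave different answers in beta cells.

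**Figure D3:**
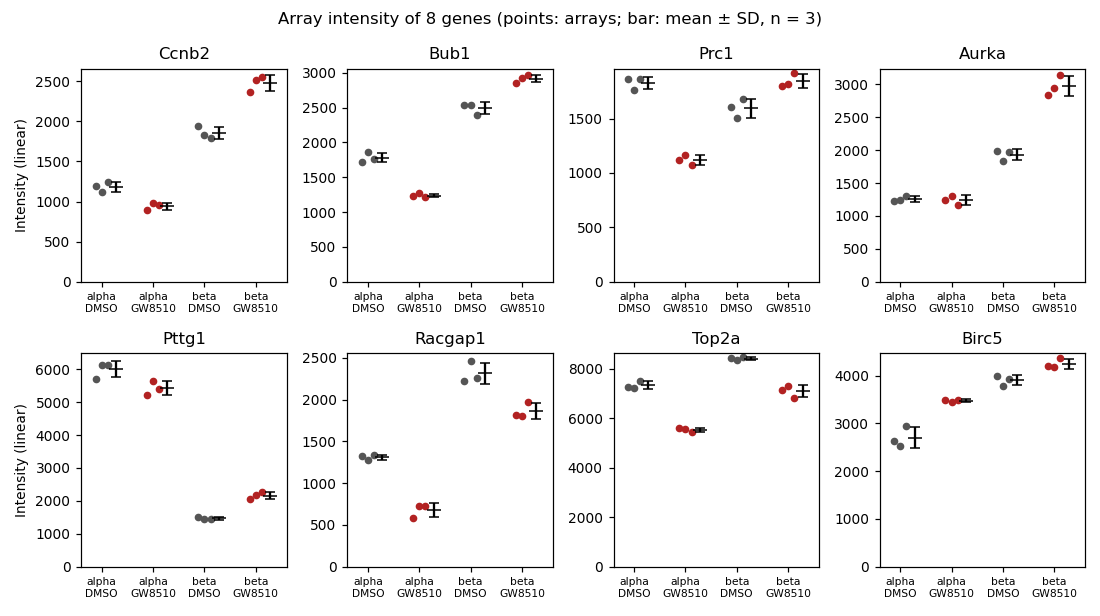
Linear intensity of 8 members, by the brightest probe set of each, on each array (points), with the mean ± SD of the 3 arrays of each group (bars). Ccnb2, Bub1 and Prc1 fall in alpha cells and rise in beta cells, Aurka and Pttg1 rise in beta cells, Racgap1 and Top2a fall in both lines, and Birc5 rises in alpha cells.

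Set side by side, the roles moved as follows. In alpha cells the median log2 fold change of a role ran from -0.53 for cytokinesis, -0.41 for the spindle and chromosomes, -0.39 for kinetochores, -0.37 for mitotic kinases and -0.30 for kinesins to -0.26 for mitotic entry and -0.14 for the APC/C and anaphase. In beta cells the medians were 0.066, 0.048, -0.0080, 0.14, 0.16, 0.18 and 0.13 in the same order. The number of members with a called difference was 3 of 5 for cytokinesis (beside Birc5 in the other direction), 3 of 5 for the spindle and chromosomes, 6 of 7 for kinetochores, 5 of 6 for kinases, 5 of 5 for kinesins, 4 of 6 for entry and 2 of 3 for the APC/C and anaphase. Over all genes the difference was called upward for 16.4% and downward for 12.0%. The groups of members by role are small and no role was tested against another. Across the 37 members the responses of both lines had Pearson's r of 0.51 and Spearman's rho of 0.59, and across all 12255 genes 0.38 and 0.41. This describes genes read on the same arrays, which are not independent replicates.

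**Figure D4:**
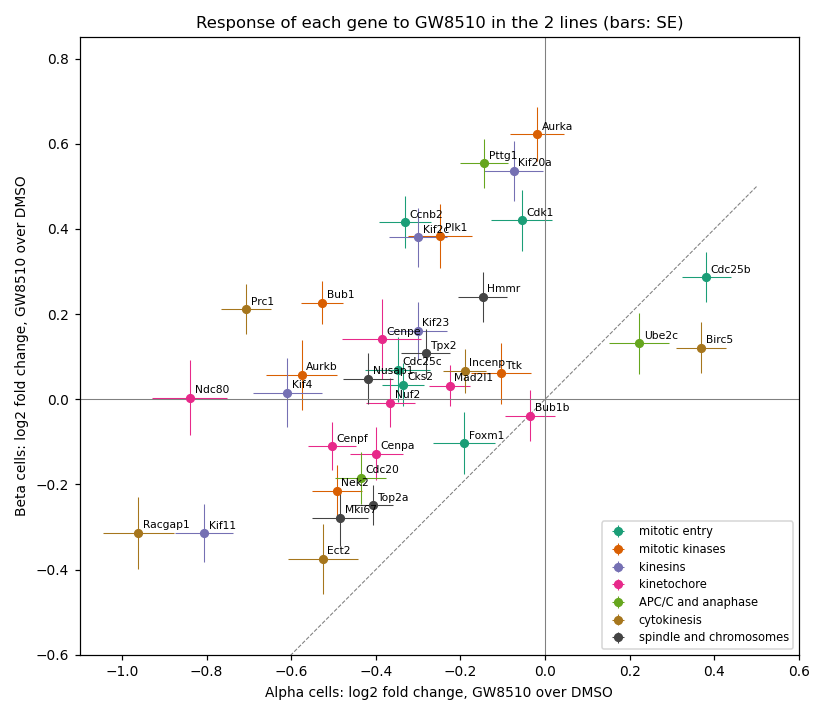
Log2 fold change (GW8510 over DMSO) in alpha cells (horizontal) and in beta cells (vertical) for each of the 37 members, with SE bars and colours by role, where the dashed line marks equal responses. Nearly all members lie above the dashed line, and Cdc25b, Ube2c, Birc5 and Bub1b are the 4 below it.

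The lines already differed in these transcripts before treatment. In DMSO, 30 of 37 members were higher and 5 lower in beta than in alpha cells, against 26.8% and 28.9% of all genes (55.7% in either direction), with a median log2 difference of 0.48 for the members and -0.048 for all genes. The arrays of both lines did not overlap for 30 members higher and 5 lower in beta cells (30.2% and 35.5% of all genes). Cell line and handling cannot be told apart in this comparison. The 3′ to 5′ ratio of Actb was also higher on each alpha DMSO array (1.36 to 1.44) than on each beta DMSO array (1.17 to 1.18), and its part was not tested. The differences upward were largest for Nusap1 (1800.5 ± 102 in alpha and 3881 ± 158 in beta cells, mean ± SD, n = 3), followed by Kif23, Cdc25b, Foxm1 and Mad2l1, with 0.97, 0.97, 0.97 and 0.96 on the log2 scale. For Foxm1 the size rested on the brightest probe set, since 2 others gave 0.28 and 0.30. A further probe set of Nusap1 pointed the other way (-0.73), and so did those of Tpx2 (-0.35, against 0.19), Top2a (-0.45, against 0.20) and Bub1 (-0.30, against 0.48). With its probe sets averaged, Bub1 was not called (adjusted p = 0.490). Cks2, Cenpe, Cenpf, Pttg1 and Prc1 were lower in beta cells. Securin stood apart among them, since Pttg1 was 5997 ± 241 in alpha and 1468 ± 40.8 in beta cells (-2.03 ± 0.058, adjusted p = 3.07e-11), and 2 further probe sets gave -0.56 and -3.01. The rise of Pttg1 with GW8510 thus left the beta line below the alpha line. Only Ttk and Bub1b, both of the spindle checkpoint, were not called (0.070 and 0.024). Small differences were not called without single arrays, which were beta DMSO replicate 1 for Aurkb (adjusted p = 0.0652), alpha DMSO replicate 3 or beta DMSO replicate 2 for Ect2 (0.0658 to 0.0674), alpha DMSO replicate 2 or beta DMSO replicate 1 or 3 for Hmmr (0.0617 to 0.0741) and beta DMSO replicate 2 for Prc1 (0.0611).

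A wider list of 105 genes of G2 and mitosis, of which 83 were measured and which shares none of the members, was read beside them. Its counts rest on the brightest probe set of each gene, and some genes had another that was called in the other direction. In alpha cells 49 fell and 12 rose (59% and 14.5%, beside 21.2% and 20.2% of all genes, median -0.31). In beta cells 22 fell and 21 rose (26.5% and 25.3%, beside 14.3% and 19.7% of all genes, median -0.067). The response was higher in beta than in alpha cells for 32 and lower for 6 (38.6% and 7.23%, beside 16.4% and 12.0% of all genes). Condensin and cohesin genes, which compact chromosomes and hold sister chromatids together, fell in alpha cells in 12 of 14 cases (85.7%). In beta cells 7 of them fell and 2 rose (50% and 14.3%). Stag1, a cohesin subunit, went from 508 to 197 in alpha cells (-1.37 ± 0.071, adjusted p = 2.4e-08) and from 1256 to 681 in beta cells (-0.88 ± 0.071). Ncapd2, a subunit of condensin I, fell in alpha cells (-1.22 ± 0.078) and had -0.16 ± 0.078 in beta cells, and Smc4, shared by both condensins, fell in both (-1.06 ± 0.11 and -0.60 ± 0.11).

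Other genes of division followed one line or both. Over all genes, 21.2% fell and 20.2% rose in alpha cells, and 14.3% fell and 19.7% rose in beta cells. Of 17 further kinetochore genes 11 fell and 2 rose in alpha cells (64.7% and 11.8%), and 3 fell and 5 rose in beta cells (17.6% and 29.4%). Zwint, counted as lower in alpha cells (-0.23), had further probe sets that rose there (1.07 and 0.93), while its remaining probe sets were not called in alpha cells. Cenpm, of the inner kinetochore, fell in both lines (-0.75 ± 0.066 and -1.06 ± 0.066), and more so in beta cells (difference -0.30 ± 0.094, adjusted p = 0.0299). Ska1 also fell in both (-1.05 ± 0.14 and -0.75 ± 0.14), while Zwilch fell in alpha cells (-0.84 ± 0.085) and had -0.13 ± 0.085 in beta cells. Of 12 further spindle and cytokinesis genes 8 fell and 1 rose in alpha cells (66.7% and 8.33%), and 4 fell and 3 rose in beta cells (33.3% and 25%). Anln, the anillin of the contractile ring, went from 1223 to 614 in alpha cells (-0.99 ± 0.053, adjusted p = 3.2e-08) and had 0.14 ± 0.053 in beta cells, a difference of 1.13 ± 0.076, adjusted p = 6.19e-07. Depdc1a (-0.83 ± 0.17) and Ckap5 (-0.74 ± 0.075) fell in alpha cells too, and Ckap5, a microtubule polymerase, also in beta cells (-0.34 ± 0.075). The motors Kif18a and Kif22 fell in alpha cells (-0.76 ± 0.064 and -0.63 ± 0.077), and Kif18a in beta cells (-0.41 ± 0.064).

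The core of the APC/C is given for comparison with its mitotic partners. Of 13 measured genes of the core, its coactivator Fzr1 and its regulators, 3 fell and 4 rose in alpha cells (23.1% and 30.8%, beside 21.2% and 20.2% of all genes), and 1 fell and 6 rose in beta cells (7.69% and 46.2%, beside 14.3% and 19.7%). Anapc1 was counted among the rises in both lines (0.17 and 0.23), but a further probe set was called lower in both (-0.69 and -0.94). Anapc11, the catalytic RING subunit, fell in alpha cells (-0.54 ± 0.060) and rose in beta cells (0.39 ± 0.060), Anapc2, its cullin partner, rose in both (0.31 ± 0.069 and 0.22 ± 0.069), and Fzr1 rose in beta cells (0.26 ± 0.066). Among 13 further regulators of entry 8 fell and 4 rose in alpha cells (61.5% and 30.8%), and 1 fell and 5 rose in beta cells (7.69% and 38.5%). Gtse1, a microtubule-binding protein of G2 and M phase, had the largest rise of the wider list in alpha cells, from 322 to 914 in alpha cells (a fold of 2.84, adjusted p = 6.3e-09) and from 449.8 to 560.4 in beta cells (0.31 ± 0.066). Plk4, the kinase of centriole duplication, and Cks1b fell in alpha cells (-0.85 ± 0.072 and -0.60 ± 0.072) and had -0.084 ± 0.072 and -0.098 ± 0.072 in beta cells. Of 11 genes of MuvB, DREAM and E2F, which control this program, 5 fell and 1 rose in alpha cells (45.5% and 9.09%). In beta cells 5 of them fell (45.5%, beside 14.3% of all genes). Rbl1, which encodes the pocket protein p107, fell in alpha cells from 619 to 338 (-0.87 ± 0.061, adjusted p = 2.9e-07) and in beta cells from 1301 to 752 (-0.79 ± 0.061, adjusted p = 2.09e-06). Lin37, a MuvB subunit, fell in both lines (-0.57 ± 0.087 and -0.28 ± 0.087), and E2f5 rose in alpha cells (0.61 ± 0.12) and had 0.32 ± 0.12 in beta cells. No difference between the lines was called for Rbl1 (difference 0.077 ± 0.086, 95% interval -0.11 to 0.27).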

How the data were processed

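RNA of 12 cultures was read on Affymetrix mouse arrays. The authors deposited intensity values, linear and between 20 and 20000, for 22690 probe sets. RMA is named, without a version, in the submitters' processing notes, and the details of the normalization are not given in the sources used here. Such scaling sets arrays on a like footing, so that a change of total RNA would not be seen. The log2 of the deposited intensities was taken without a pseudocount. Of the probe sets 64 were controls, 20380 had 1 gene symbol (from GEO's platform annotation), 691 had several and 1555 had none here, and 330 with 1 symbol were at a bound on all arrays. The rest gave 12255 genes, of which 4854 had more than 1 probe set.

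All 4 groups were fitted together in limma 3.58.1 (R 4.3.3) with Benjamini-Hochberg adjustment over all genes and calls at an adjusted p under 0.05 (two-sided). The methods name no test for the arrays. The median SE of a fold change was 0.084 (log2), a precision set by the number of arrays. The fit was tested on simulated data. Other probe sets were compared in a fit of all probe sets, with any number of symbols, except controls and those at a bound on all arrays. There p was adjusted over all probe sets fitted. Arrays of the same replicate number did not deviate together, and no block was used in the main fit. Promoter sequences are RefSeq's. The listed genes and other lists were chosen with earlier results of these data known, and no test was made over a list. Values on every array are given for the members with the largest changes in each role, those that rose in either line and those with opposite responses. From each further list up to 3 genes with the largest changes are named. Alternatives were 2 scalings between arrays, other uses of the probe sets, a filter on the dimmest 25% of genes, only the 6 arrays compared, other estimates of spread, array weights, a pseudocount of 16, the replicate number as a block, leaving out each array in turn, and, chosen after seeing the data, leaving out alpha GW8510 replicate 1 and beta GW8510 replicate 3 together, which had the lowest array weights.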

Additional observations from a re-analysis of the deposited data

Results flagged for a closer look

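These results stood out because the response to GW8510 differed between the alpha and the beta line in the test of the difference itself (limma contrast of both responses, adjusted p under 0.05 over all genes). Each value in brackets is the response in beta cells minus that in alpha cells on the log2 scale, and 28.5% of all genes passed this test in either direction. Groups of 3 arrays are too small for a test of single outlying samples.

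The differences of 0.6 or more were those of Prc1 (0.92), Ndc80 (0.84), Bub1 (0.75), Ccnb2 (0.75), Pttg1 (0.70), Kif2c (0.68), Racgap1 (0.65), Aurka (0.64), Aurkb (0.63), Plk1 (0.63), Kif4 (0.63) and Kif20a (0.61). By their brightest probe sets, Prc1, Bub1, Ccnb2, Kif2c and Plk1 are among them through changes of opposite sign in both lines. Further probe sets not called in beta cells were those of Bub1 (-0.41) and Prc1 (0.022) and the dimmest of Kif2c (-0.29). Ndc80, Racgap1, Aurkb and Kif4 are among them mainly through the fall in alpha cells, and Pttg1, Aurka and Kif20a mainly through the rise in beta cells. Smaller differences were found for Cenpe (0.53), Kif11 (0.49), Cdk1 (0.48), Nusap1 (0.47), Kif23 (0.46) and Cdc25c (0.42). The smallest that passed were those of Cenpf (0.39), Tpx2 (0.39), Hmmr (0.39), Cks2 (0.37), Nuf2 (0.36), Nek2 (0.28), Cenpa (0.27), Mad2l1 (0.26), Incenp (0.26) and Cdc20 (0.25). Birc5 (-0.25), which encodes survivin, was the member with a response lower in beta cells.

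Among the further genes of division named above, the difference was upward for Anln (1.13), Ncapd2 (1.07), Anapc11 (0.93), Plk4 (0.76), Zwilch (0.71), Depdc1a (0.71), Kif22 (0.56), Cks1b (0.50), Stag1 (0.49), Smc4 (0.46), Ckap5 (0.40), Kif18a (0.36) and Fzr1 (0.34). It was downward for Cenpm (-0.30) and Gtse1 (-1.19), since Cenpm fell more in beta cells and Gtse1 rose more in alpha cells. The part of culture, cell line and array handling in these differences was not tested.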

How the results depend on the processing

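Over 23 alternatives (22 for the difference of the responses, which needs all groups), the counts of members called in alpha cells (26 lower and 3 higher), higher in beta cells (11), with a higher response in beta cells (28) and different between untreated lines stayed within 1.5 times. The count of members lower in beta cells was 4 to 7 with each array left out (4 without beta DMSO replicate 2). The count with a lower response in beta cells, 1 gene (Birc5), was 0 with every probe set tested on its own, 2 with array weights, 0 to 1 with each array left out, and 0 without alpha GW8510 replicate 1 and beta GW8510 replicate 3. With array weights 2280 of all genes had a lower response in beta cells, against 1475. When the probe sets of a gene were averaged, -0.093 was obtained for Bub1 and -0.30 for Tpx2 in beta cells, and -0.079 for Tpx2 and -0.12 for Top2a between the untreated lines, all of them opposite in sign to the brightest probe set, which in each of these genes disagreed with another probe set. Single members' values kept their side of the threshold, with no called value changing sign, in most alternatives. This held for 813 of 851 in alpha cells, 829 of 851 in beta cells, 761 of 814 differences and 836 of 851 between untreated lines. A value called in neither fit was counted as kept even where its sign changed. In the same order 13, 15, 47 and 13 lost a call, 25, 5, 6 and 0 gained a call, and 0, 2, 0 and 2 were reversed. The causes were not tested.

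Arrays of the same replicate number did not deviate together (r of -0.30 to 0.14), and the numbers were not used as pairs. With 3 arrays a group this cannot show whether cultures were handled in parallel. The paper speaks of matched vehicle controls without saying how they were matched. With the replicate number as a block, 26 members fell and 3 rose in alpha cells, 7 fell and 11 rose in beta cells, 25 had a higher and 1 a lower response in beta cells, and over all genes 2511 fell and 2374 rose in alpha cells and 1654 fell and 2259 rose in beta cells. The block moved no count of members or of all genes by over 1.5 times.

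Limits are that 3 arrays a group give small changes an uncertain call, that the values come from a single time, 5 days, and that each cell type is represented by 1 line.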

Other observations

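Stag2, a cohesin subunit encoded on the X chromosome, was chosen after its values were seen. Its intensity was 2339, 2136 and 1956 on the alpha DMSO arrays and 23.2, 20.5 and 23.0 on the beta DMSO arrays. The beta values lie next to the lower bound of 20, so the size of this difference has only a lower limit and no fold is given. A further probe set had means of 521 in alpha and 39.5 in beta DMSO cells. GW8510 lowered Stag2 in alpha cells to 1447, 1521 and 1664 (-0.47 ± 0.086, adjusted p = 0.000735), and beta cells remained near the bound with 22.9, 21.1 and 24.5. The paralog Stag1 was higher in beta than in alpha cells before treatment (1256 and 508, log2 difference 1.31 ± 0.071, adjusted p = 8.96e-09).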
